A study of Mus musculus with 6 samples.

Results

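Mt1 and Mt2 (MT1 and MT2 in the count tables) encode metallothioneins 1 and 2, and their transcripts were followed here through the blood cell types of the lineage-negative (Lin-) fraction of Stag2 KO and Stag2 wt mice. The pair was taken by name, as 2 of 18011 gene symbols present in any library, and had been picked because its levels differed between the genotypes in earlier work on these counts. Every Stag2 KO against Stag2 wt value of Mt1 and Mt2 below is therefore a description, given with no p. Lin- haematopoietic stem and progenitor cells (HSPC) lack the surface markers of mature blood lineages. They came from 3 Stag2 KO mice (KO1 to KO3) and 3 Stag2 wt mice (WT1 to WT3), and where 3 values follow each other they are in that order. Each gave 1 single-cell RNA sequencing library, made from polyadenylated RNA with 10x chemistry that reads the 3' end of transcripts. The labels give neither the tissue the cells were taken from, the strain and the age nor how and when Stag2 was deleted, and they name no further treatment in either group. The design asks how loss of Stag2, a subunit of the cohesin complex that holds DNA loops, changes the cells formed in this fraction and the genes they express.

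Metallothioneins are small, cysteine-rich proteins that bind zinc and copper ions, buffer the free zinc of the cell and take up toxic metals such as cadmium. When free zinc rises, it binds the transcription factor MTF-1, which then occupies short metal response elements (MREs) in the promoters of Mt1, Mt2 and the zinc exporter gene Slc30a1. Glucocorticoids and oxidative stress are also known to induce Mt1 and Mt2. Developing red cells, which handle much iron and zinc, and the liver are known for high metallothionein levels.

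The kept cells numbered 4315, 2385 and 3639 in KO1 to KO3, against 2412, 4258 and 6407 in WT1 to WT3. Their unique molecular identifiers (UMIs, each 1 counted transcript copy) totalled 19435172 to 34193232 per Stag2 KO library and 15543863 to 32145589 per Stag2 wt library, with a median per cell of 5721 to 5936 and 3462 to 4892. Between 96 and 190 cell barcodes of a library also occurred in another one. Stag2 itself, the check of the labels, stood at 24.95, 23.67 and 20.04 UMIs per 1000000 UMIs (CPM) in KO1 to KO3 and at 53.4, 43.3 and 42.8 CPM in WT1 to WT3 (log2 fold change -1.05 ± 0.12, SE, edgeR adjusted p = 0.00056). It was not lost from the counts, and a 3' tag outside the deleted part measures no intact transcript. Title codes of the samples start with XA in the 3 Stag2 KO libraries and WT1 and differ in WT2 and WT3. The meaning of this prefix was not stated in the labels, so values with the prefix as a covariate are given beside the results it moves. WT1 is the only Stag2 wt library with the prefix, so in that fit the genotype difference is that of the 3 Stag2 KO libraries from WT1 alone, and its values are close to those of the XA libraries taken alone. Cells were grouped by clustering without Mt1 and Mt2 and named by fixed markers, each name standing for cells like that type. Of 13 named classes, 9 held at least 20 cells in every library and were fitted.

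Both genes lie on chromosome 8 of GRCm38, on the plus strand, Mt2 at 94172664 to 94173568 and Mt1 at 94179082 to 94180327, as annotated in GENCODE. Their start sites are 6418 bases apart. The sequences just before them are shown with their matches to the MRE core, and further matches lay after the starts. Each is the 250 bases before the RefSeq start, on the plus strand of GRCm38.p6, with each match to the MRE core in capitals. The core was searched as TGCACNC and TGCGCNC on both strands.

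Mt1 promoter, chr8:94178839-94179088: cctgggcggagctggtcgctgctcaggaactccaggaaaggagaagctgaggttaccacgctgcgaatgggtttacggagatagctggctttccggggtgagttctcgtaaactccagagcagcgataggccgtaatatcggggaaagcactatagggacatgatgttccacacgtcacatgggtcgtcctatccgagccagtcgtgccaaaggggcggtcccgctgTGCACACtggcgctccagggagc
Mt2 promoter, chr8:94172368-94172617: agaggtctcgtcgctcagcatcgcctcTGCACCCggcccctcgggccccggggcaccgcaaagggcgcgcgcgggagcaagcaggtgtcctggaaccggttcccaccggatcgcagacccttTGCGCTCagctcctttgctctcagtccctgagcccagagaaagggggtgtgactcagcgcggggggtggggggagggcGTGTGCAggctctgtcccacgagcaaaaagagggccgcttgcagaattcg

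The Mt2 window held 3 matches, which begin 223, 128 and 50 bases before the start, the last of them on the minus strand. The Mt1 window held 1 match, 23 bases before the start. The first 50 bases after each RefSeq start held 2 more matches for Mt1, TGCACTC and TGCGCTC, and 1 more for Mt2. Bases further on were not searched, and no element was tested for a response to zinc. At least 1 match was found in 21.4% of 32851 promoter windows of 250 bases, and 3 or more in 1.26%. With the bases after the start included, 1.97% of windows held as many matches as Mt1 and 0.517% as many as Mt2. Neither 250-base window held an AGATAA or TGATAA site of GATA factors, a CACGTG element or an AGAACA site of the glucocorticoid receptor. The Mt2 window held 1 antioxidant element, TGACNNNGC, which 10.2% of windows contain. A match is a run of letters and says nothing of occupancy.

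Mt1 was by far the more abundant of the pair in counts. It summed to 6902, 3644 and 5466 UMIs in KO1 to KO3 and to 1935, 4872 and 7644 UMIs in WT1 to WT3. Mt2 summed to 215, 50 and 93 UMIs in the Stag2 KO libraries and to 263, 744 and 1012 UMIs in the Stag2 wt libraries. Of the other family members, Mt3, a metallothionein known from the brain, reached at most 0.129 CPM in a library, and Mt4 was not analysed here. The antisense gene Gm45774, which overlaps Mt2 on the minus strand, was not analysed here either, and no source used here states how the counting treated strand.

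Mt1 was high in both the erythroid and the neutrophil branch. The few eosinophil-like cells held 81.1 to 159 CPM of Mt1 in Stag2 KO and 276 to 376 CPM in Stag2 wt libraries. They overlapped early erythroid-like cells in both genotypes. Mt2 was high in erythroid cells. A few megakaryocyte-like cells held Mt2 too, with most of its UMIs in the dividing cluster of that class. Late erythroid-like cells, the haemoglobin-making stage, held the highest level of both. Mt1 there stood at 883, 1045 and 1048 CPM in KO1 to KO3 and at 758, 1141 and 931 CPM in WT1 to WT3. Mt2 stood at 399, 373 and 780 CPM in the Stag2 KO libraries and at 525, 813 and 707 CPM in the Stag2 wt libraries. The genotypes overlapped for both genes at this stage. This class held only 14, 7 and 7 cells in KO1 to KO3 and 21, 39 and 48 cells in WT1 to WT3, so it was not fitted. Its haemoglobin and other late erythroid markers summed to 548 to 40080 CPM over the Stag2 KO libraries and to 4324 to 13550 CPM over the Stag2 wt libraries, and the cells of KO2 and KO3 had medians of 1518 and 1789 UMIs.

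**Figure D1:**
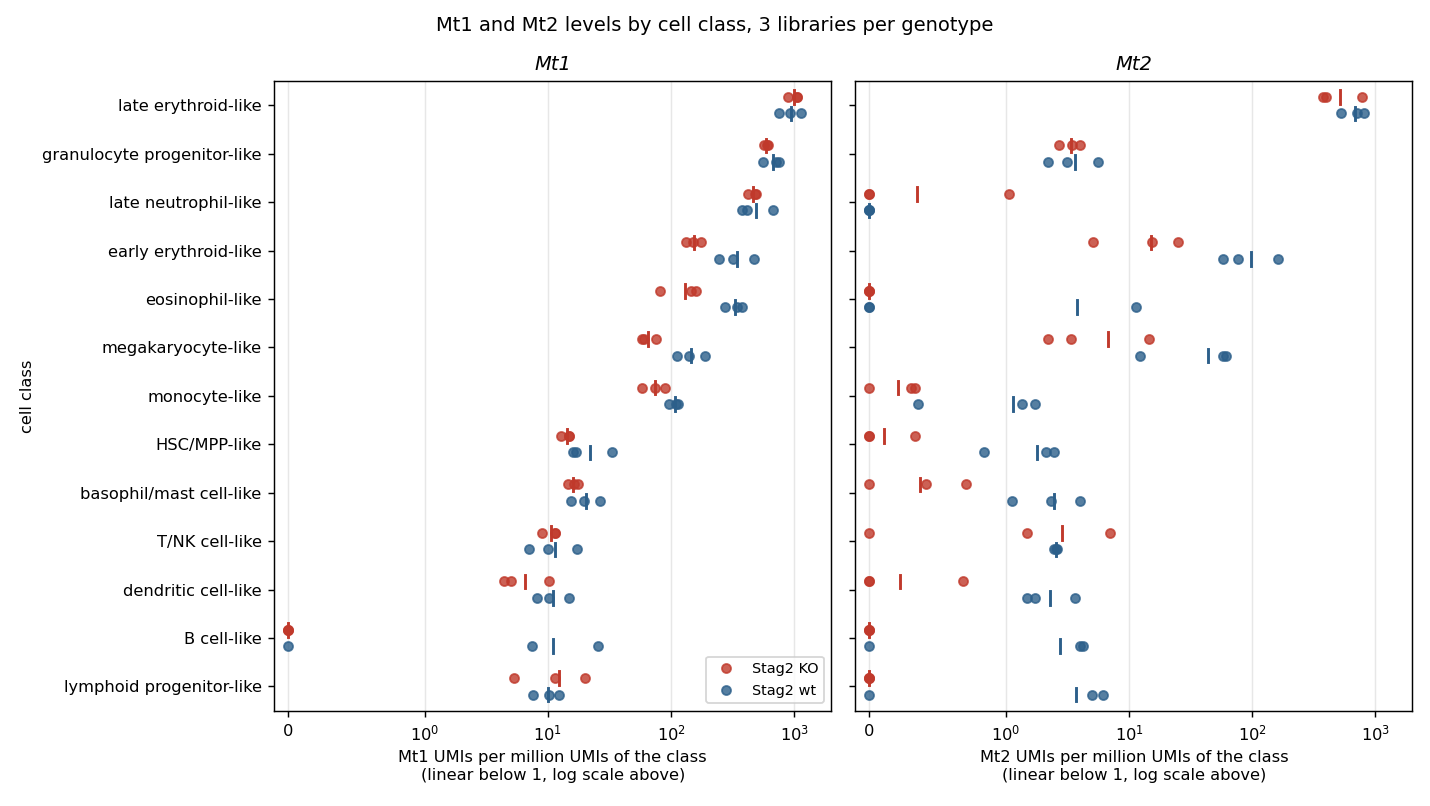
Mt1 (left) and Mt2 (right) UMIs per 1000000 UMIs of each cell class, on an axis that is linear below 1 and logarithmic above. Points are single libraries, red for Stag2 KO above blue for Stag2 wt, and ticks are means of 3. Mt1 was high in erythroid and neutrophil classes and, in Stag2 wt libraries, in eosinophil-like cells. Mt2 exceeded 20 CPM in a library only in late erythroid-like, early erythroid-like and megakaryocyte-like cells.

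Granulocyte progenitor-like cells, the Elane and Mpo positive precursors of neutrophils, came next for Mt1. Their level was 571, 606 and 599 CPM in KO1 to KO3 and 562, 705 and 752 CPM in WT1 to WT3. Mt2 in the same cells was only 2.697, 3.997 and 3.456 CPM in the Stag2 KO libraries and 2.21, 3.14 and 5.58 CPM in the Stag2 wt libraries. Late neutrophil-like cells, which carry secondary granule genes, held 417 to 488 CPM of Mt1 in the Stag2 KO libraries and 374 to 677 CPM in the Stag2 wt libraries. A single Mt2 UMI was counted in all of these late neutrophil-like cells. Per 100 Mt1 UMIs there were 0.553 Mt2 UMIs in granulocyte progenitor-like cells of the Stag2 KO libraries together and 0.611 in those of the Stag2 wt libraries. The same ratio was 47.9 in Stag2 KO and 73.0 in Stag2 wt late erythroid-like cells.

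In the order of Mt1 levels, late erythroid-like cells did not overlap granulocyte progenitor-like cells in either genotype. In Stag2 KO libraries the next step down, to late neutrophil-like cells at 417 to 488 CPM, was also free of overlap, as was the one to early erythroid-like cells at 131 to 175 CPM. In Stag2 wt libraries the steps from granulocyte progenitor-like to late neutrophil-like, to early erythroid-like and to eosinophil-like cells all overlapped. The next step, from eosinophil-like cells at 276 to 376 CPM to megakaryocyte-like cells at 112 to 188 CPM, was free of overlap. Monocyte-like and megakaryocyte-like cells overlapped each other in both genotypes. In the order of Mt2 levels, only the step from late to early erythroid-like cells was free of overlap in both genotypes.

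In the remaining classes Mt1 was low. Lymphoid progenitor-like cells, which are not known for metallothionein, held 5.27 to 19.9 CPM of Mt1 in the Stag2 KO libraries and 7.56 to 12.4 CPM in the Stag2 wt libraries. HSC/MPP-like cells (stem cells and multipotent progenitors), basophil/mast cell-like, T/NK cell-like and dendritic cell-like cells held 4.39 to 17.4 CPM in the Stag2 KO libraries and 7.06 to 33.1 CPM in the Stag2 wt libraries. With every cell thinned to 2000 UMIs, an Mt1 UMI was found in at most 3.51% of the cells of these 4 classes in a Stag2 KO library and 5.39% in a Stag2 wt library. The share in lymphoid progenitor-like cells was 0 to 2.04% in Stag2 KO and 0 to 1.96% in Stag2 wt libraries. Unthinned it was 3.70% to 11.1% in Stag2 KO and 3.57% to 5.63% in Stag2 wt libraries, at median depths of 5910 to 7290 in Stag2 KO and 5097 to 7583 UMIs per cell in Stag2 wt libraries. B cell-like cells numbered 14, 2 and 4 in the Stag2 KO libraries with no Mt1 UMI, which allows up to 85.1, 492 and 340 CPM by a count of 3, so no level could be given.

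Within classes the level of Mt1 followed the cluster. In granulocyte progenitor-like cells the cluster led by Elane, Fcnb and Wfdc21 held 797 to 841 CPM in Stag2 KO and 880 to 966 CPM in Stag2 wt libraries. The cluster led by Mpo, Prss57 and Ms4a3 held 266 to 378 CPM in Stag2 KO and 368 to 490 CPM in Stag2 wt libraries. In monocyte-like cells, the cluster led by F13a1, Csf1r and Ly6c2 held 107 to 155 CPM in Stag2 KO and 171 to 183 CPM in Stag2 wt libraries. The monocyte-like cluster led by Cd209a and Klf4 held only 5.74 to 17.3 CPM in Stag2 KO and 9.23 to 13.4 CPM in Stag2 wt libraries. Within megakaryocyte-like cells, Mt2 was found mainly in the dividing cluster that expresses Pf4 together with Mki67 and Top2a, at 4.06 to 23.4 CPM in Stag2 KO and 19.6 to 107 CPM in Stag2 wt libraries. In that dividing cluster 5 of 13 megakaryocyte markers were raised. Early erythroid markers there summed to 2239, 1920 and 2170 CPM in Stag2 KO and to 2590, 2246 and 2637 CPM in Stag2 wt libraries, and megakaryocyte markers to 2734, 1688 and 1530 CPM in Stag2 KO and to 1449, 1675 and 1720 CPM in Stag2 wt libraries. The erythroid sum was thus the higher in all libraries but KO1. The megakaryocyte-like cluster led by Pf4, Gp9 and Gp5 without dividing-cell genes held at most 0.987 CPM in Stag2 KO and 5.14 CPM in Stag2 wt libraries. Cluster genes were used to form the clusters, but Mt1 and Mt2 were not.

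Unthinned, an Mt1 UMI was found in 21.96% to 25.45% of the kept Stag2 KO cells and 14.55% to 20.35% of the kept Stag2 wt cells. Mt2 UMIs came from few cells, 0.839% to 1.25% of the Stag2 KO and 2.28% to 2.67% of the Stag2 wt cells. The sums over all cells mixed several classes. Granulocyte progenitor-like cells held 67.4%, 70.8% and 72.9% of all Mt1 UMIs in KO1 to KO3, against 39.4%, 41.4% and 49.4% in WT1 to WT3. Those cells were 9.77% to 13.1% of the kept Stag2 KO cells and 3.03% to 7.21% of the kept Stag2 wt cells. Late erythroid-like cells held 57.7%, 30% and 37.6% of the Mt2 UMIs in the Stag2 KO libraries and 65.0%, 64.7% and 55.1% in the Stag2 wt libraries. They were 0.192% to 0.324% of the kept Stag2 KO cells and 0.749% to 0.916% of the kept Stag2 wt cells. The 10 cells with most Mt2 UMIs held 66.5%, 80.0% and 74.2% of them in KO1 to KO3 and 68.8%, 55.7% and 28.9% in WT1 to WT3.

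**Figure D2:**
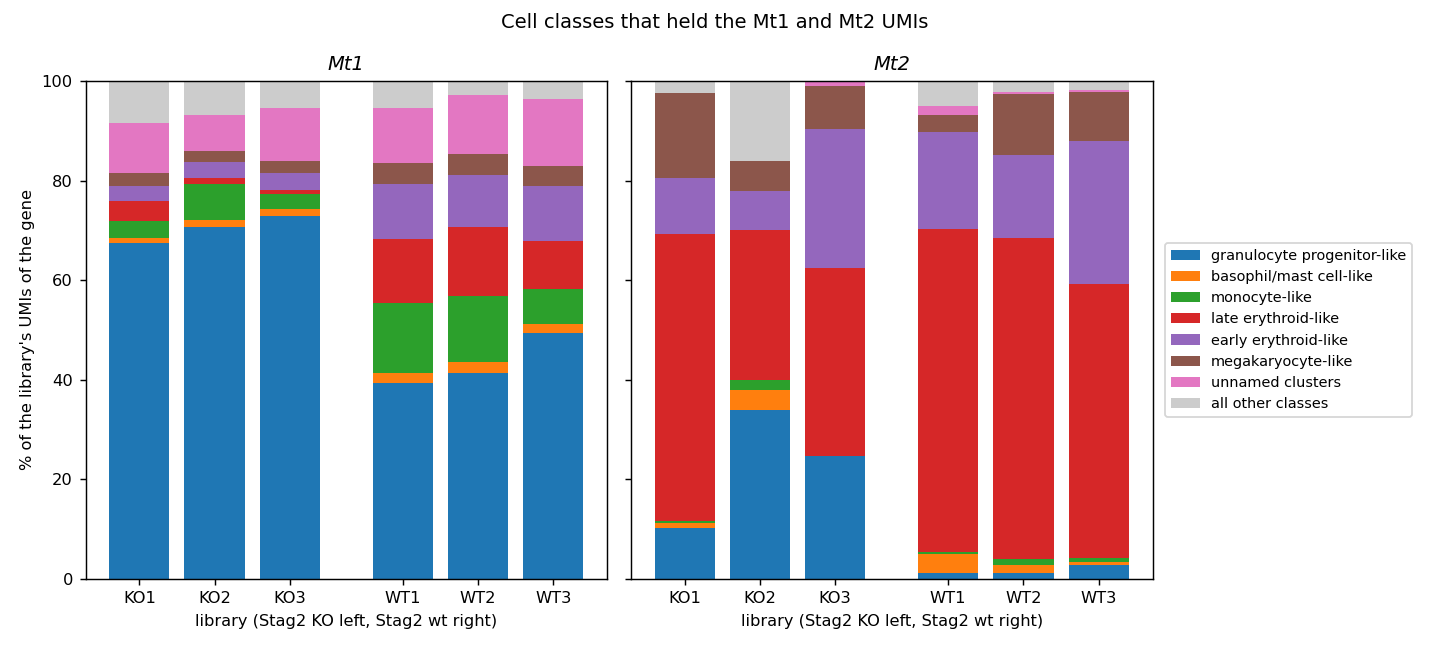
Percentage of each library's Mt1 (left) and Mt2 (right) UMIs held by each cell class, Stag2 KO libraries left of Stag2 wt libraries in each panel. Granulocyte progenitor-like cells (blue) held 67.4% to 72.9% of Mt1 UMIs in Stag2 KO and 39.4% to 49.4% in Stag2 wt libraries, and erythroid classes (red and purple) held most of the Mt2 UMIs in 5 of the 6 libraries, all but KO2.

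Over all kept cells Mt2 was lower in every Stag2 KO library, while Mt1 overlapped between the genotypes. Mt2 stood at 6.29, 2.57 and 3.24 CPM in KO1 to KO3 and at 16.9, 25.2 and 31.5 CPM in WT1 to WT3, with no overlap. The log2 fold change was -2.60 ± 0.30 (SE). Mt1 stood at 202, 188 and 190 CPM in the Stag2 KO libraries and at 125, 165 and 238 CPM in the Stag2 wt libraries, which overlapped (0.10 ± 0.19). Over all cells, 13.2% of 12641 tested genes were lower in Stag2 KO libraries with no overlap. Cell makeup moved both values. With the same class shares in every library the log2 fold change of Mt1 was -0.44 and that of Mt2 -1.70. Without late erythroid-like cells Mt2 stayed at -2.23, and without both erythroid-like classes and megakaryocyte-like cells it was -0.93, alternatives chosen after the data were seen. With the title code prefix as a covariate Mt1 was at 0.58 and Mt2 at -2.06.

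Early erythroid-like cells, the Klf1, Car1 and Aqp1 positive progenitors before haemoglobin accumulates, showed lower levels of both genes in Stag2 KO libraries. Mt1 stood at 131, 150 and 175 CPM in KO1 to KO3 and at 244, 316 and 469 CPM in WT1 to WT3. All 3 Stag2 KO libraries were below the lowest Stag2 wt library, with a log2 fold change of -1.25 ± 0.16 (SE). Mt2 stood at 15.5, 5.10 and 24.9 CPM in the Stag2 KO libraries and at 58.3, 77.0 and 161 CPM in the Stag2 wt libraries. Here too the genotypes did not overlap, and the log2 fold change was -2.74 ± 0.33. In these cells 5.92% of 7436 tested genes were lower in Stag2 KO libraries without overlap. With the prefix as a covariate the values were -0.82 for Mt1 and -2.0025 for Mt2.

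The share of early erythroid-like cells in which the genes were seen differed in the same direction. With cells thinned to 2000 UMIs, an Mt1 UMI was found in 14.6%, 15.5% and 17.3% of them in KO1 to KO3 and in 25.3%, 30.4% and 32.2% in WT1 to WT3. Unthinned these shares were 33.0% to 35.0% in Stag2 KO and 49.5% to 57.0% in Stag2 wt libraries. An Mt2 UMI was found in 1.41%, 0% and 2.16% of thinned cells of the Stag2 KO libraries and in 6.32%, 7.85% and 10.6% of those of the Stag2 wt libraries. The 0% of KO2 was 0 of 103 cells, with an exact 95% binomial upper bound of 3.52% that covers counting error only. Unthinned, the Mt2 shares were 2.91% to 5.67% in Stag2 KO and 13.7% to 20.8% in Stag2 wt libraries. Thinned cells with an Mt2 UMI mostly held an Mt1 UMI as well, 4 of 6 cells in the Stag2 KO libraries together and 40 of 51 in the Stag2 wt libraries. Among thinned cells without Mt2, 14.9% of Stag2 KO and 25.7% of Stag2 wt cells held an Mt1 UMI.

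Markers of other cells and stages differed in the same class. The 13 early erythroid markers summed to 5133, 4403 and 4916 CPM in KO1 to KO3 and to 5723, 6024 and 6189 CPM in WT1 to WT3, and 6 of the 13 were lower in every Stag2 KO library. The 11 late erythroid markers summed to 76.7 to 90.5 CPM in Stag2 KO and 66.5 to 94.9 CPM in Stag2 wt libraries. The 13 megakaryocyte markers summed to 415, 460 and 448 CPM in the Stag2 KO libraries and to 277, 294 and 234 CPM in the Stag2 wt libraries, with 8 of them higher in every Stag2 KO library and 2 at 0 in all libraries, where 10.6% of 7436 tested genes were higher without overlap. The 11 granulocyte progenitor markers summed to 593 to 724 CPM in Stag2 KO and 475 to 652 CPM in Stag2 wt libraries, with 4 of them higher in every Stag2 KO library and 1, Gfi1, at 0 in all libraries. The 8 macrophage markers summed to 8.63 to 12.9 CPM in Stag2 KO and 16.2 to 22.9 CPM in Stag2 wt libraries, with Adgre1 and Cd5l at 0 in all libraries. The part of these differences in the levels of Mt1 and Mt2 was not tested, but the levels were read again within ranges of marker content.

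Early erythroid-like cells with at least 2000 UMIs were split into 3 ranges of equal size by the share of their UMIs from the early erythroid markers, a split chosen after the data were seen. The mean level of both genes was higher in each higher range, in both genotypes. Single libraries departed from this, since WT2 had lower values of both genes in the middle range than in the low one, WT1 had lower values of both in the high range than in the middle one, and KO2 had an Mt2 level of 0 in the middle range and 2.54 CPM in the low one. In the low range Mt1 was at 52.8, 55.9 and 56.1 CPM in KO1 to KO3 and at 98.7, 237 and 99.9 CPM in WT1 to WT3. In the middle range Mt1 was at 154, 159 and 222 CPM in the Stag2 KO libraries and at 308, 184 and 462 CPM in the Stag2 wt libraries, now with overlap. In the high range it was at 198, 358 and 286 CPM in Stag2 KO and at 269, 454 and 584 CPM in Stag2 wt libraries, again with overlap. Mt2 in the low range was at 0, 2.54 and 0 CPM in the Stag2 KO libraries and at 9.87, 54.1 and 29.6 CPM in the Stag2 wt libraries. These values rest on 0, 1 and 0 UMIs in Stag2 KO and on 2, 16 and 8 UMIs in Stag2 wt libraries. Mt2 in the middle range was at 10.1, 0 and 11.7 CPM in the Stag2 KO libraries and at 82.6, 28.9 and 155 CPM in the Stag2 wt libraries. In the high range Mt2 was at 38.4, 17.6 and 64.5 CPM in Stag2 KO and at 64.5, 120 and 205 CPM in Stag2 wt libraries, with KO3 just above WT1. The low range held 100, 57 and 66 cells of the Stag2 KO libraries and 27, 38 and 53 of the Stag2 wt libraries, and the high range 49, 17 and 37 against 34, 77 and 128.

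**Figure D3:**
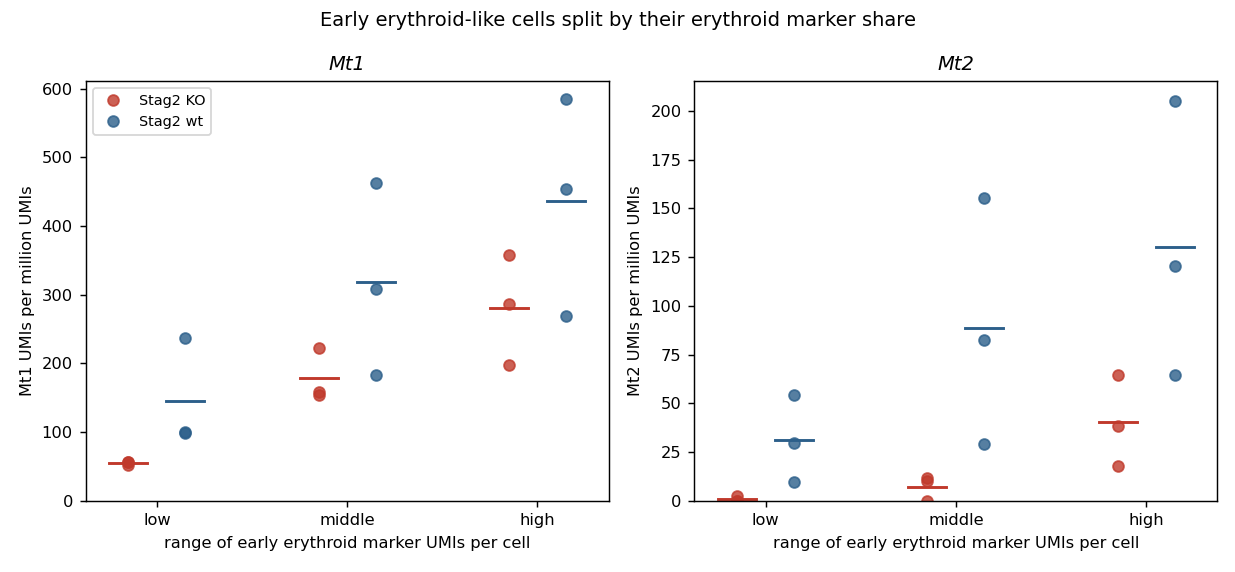
Mt1 (left) and Mt2 (right) UMIs per 1000000 UMIs in early erythroid-like cells, split into 3 ranges by the share of UMIs from erythroid markers. Points are libraries, red for Stag2 KO left of blue for Stag2 wt, and bars are means of 3. Mean levels were higher at higher marker content in both genotypes, and the Stag2 KO means lay below the Stag2 wt means in each range. The libraries overlapped in the high range for both genes and in the middle range for Mt1.

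Megakaryocyte-like cells, named for the precursors of platelets, also held less Mt1 in Stag2 KO libraries. Their dividing cluster, 47.4% of the Stag2 KO and 51.4% of the Stag2 wt cells, held the higher Mt1 level and most Mt2 UMIs. Early erythroid markers there summed higher than megakaryocyte markers in all libraries but KO1. Over the whole class Mt1 was at 74.9, 60.5 and 58.0 CPM in KO1 to KO3 and at 112, 139 and 188 CPM in WT1 to WT3, without overlap (log2 fold change -1.26 ± 0.15, SE). Thinned to 2000 UMIs, 7.81%, 7.56% and 7.08% of the Stag2 KO cells and 13.1%, 10.7% and 17.5% of the Stag2 wt cells held an Mt1 UMI, and unthinned 17.8% to 24.4% in Stag2 KO and 31.9% to 35.5% in Stag2 wt libraries. Mt2 stood at 14.5, 2.19 and 3.38 CPM in the Stag2 KO libraries and at 12.3, 61.2 and 57.9 CPM in the Stag2 wt libraries. KO1 lay above WT1, so the genotypes overlapped (-2.73 ± 0.40). These levels rest on few cells. An Mt2 UMI was found in 9 of 259, 2 of 119 and 2 of 228 cells in the Stag2 KO libraries and in 4 of 62, 4 of 131 and 12 of 210 cells in the Stag2 wt libraries, with 91 UMIs in the 4 cells of WT2. Thinned to 2000 UMIs the shares were 1.95%, 0% and 0.885% in Stag2 KO and 3.28%, 2.29% and 2.91% in Stag2 wt libraries. In these cells 5.6% of 8328 tested genes were lower in Stag2 KO libraries without overlap. With the prefix as a covariate the log2 fold changes were -0.92 for Mt1 and -0.84 for Mt2, and without KO1 that of Mt2 was -4.06. Mt2 gave no value in this class with doublet calls kept, clustered with Mt1 and Mt2, or at Leiden resolution 2.0.

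The early erythroid markers in megakaryocyte-like cells summed to 2042, 1873 and 2122 CPM in KO1 to KO3 and to 2327, 2120 and 2523 CPM in WT1 to WT3. The megakaryocyte markers summed to 4260, 3042 and 3055 CPM in Stag2 KO and to 2900, 3805 and 3005 CPM in Stag2 wt libraries. Their part in the levels of Mt1 and Mt2 was not tested. In the dividing megakaryocyte-like cluster Mt1 was at 105, 91.9 and 68.8 CPM in the Stag2 KO libraries and at 155, 195 and 240 CPM in the Stag2 wt libraries, without overlap. In the nondividing cluster it was at 28.6, 23.8 and 39.3 CPM in Stag2 KO and at 40.03, 63.9 and 89.2 CPM in Stag2 wt libraries, also without overlap. Among genes with at least 15 UMIs, 5.76% of 9910 were lower without overlap in the dividing cluster and 5.51% of 9154 in the nondividing one.

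In the neutrophil branch the difference was small. The Mt1 log2 fold change in granulocyte progenitor-like cells was -0.26 ± 0.10 (SE), with overlap in CPM over the class. It was 0.0001 with the prefix as a covariate. In the cluster led by Elane, Fcnb and Wfdc21 Mt1 was lower without overlap, beside 5.35% of 10291 genes with at least 15 UMIs. It overlapped in the cluster led by Mpo, Prss57 and Ms4a3. Thinned to 2000 UMIs, 56.9%, 60.1% and 58.2% of granulocyte progenitor-like cells held an Mt1 UMI in KO1 to KO3 and 64.4%, 65.4% and 71.7% in WT1 to WT3. Unthinned the shares were 90.9% to 93.1% in Stag2 KO and 92.2% to 94.8% in Stag2 wt libraries. The thinned shares did not overlap between the genotypes, and the unthinned ones did. Mt2 there was at -0.43 ± 0.34 (SE) on the log2 scale and at 0.49 with the prefix as a covariate. In these cells 5.07% of 9482 tested genes were lower in Stag2 KO libraries without overlap. In eosinophil-like cells, with 5 to 41 Stag2 KO cells and 8 to 23 Stag2 wt cells per library, Mt1 was at 159, 81.1 and 146 CPM in Stag2 KO and at 343, 376 and 276 CPM in Stag2 wt libraries, without overlap. The value of KO2 rests on 2 UMIs in 5 cells, and 4.06% of 4679 genes with at least 15 UMIs were lower without overlap in these cells.

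In monocyte-like cells Mt1 stood at 73.6, 89.2 and 58.5 CPM in KO1 to KO3 and at 96.7, 110 and 114 CPM in WT1 to WT3, without overlap (log2 fold change -0.56 ± 0.14, SE, and -0.31 with doublet calls kept). In this class 10.2% of 9361 tested genes were lower in Stag2 KO libraries without overlap. Mt1 was lower so in cluster 8, beside 5.96% of 10383 genes, and overlapped in clusters 5 and 24. Cluster 28 held 38.6 to 46.2 CPM in Stag2 KO and 12.6 to 27.2 CPM in Stag2 wt libraries, the latter on 1 or 2 UMIs each. Cluster 8 was 29.2% of the Stag2 KO and 38.6% of the Stag2 wt cells of the class, and cluster 28 was 13.8% and 2.57%. In HSC/MPP-like cells Mt1 stood at 14.9, 14.8 and 12.9 CPM in Stag2 KO and at 16.0, 16.9 and 33.1 CPM in Stag2 wt libraries, without overlap (-0.73 ± 0.26), beside 5.41% of 9234 tested genes. That value rested partly on WT3, without which it was -0.30, and the Stag2 KO levels lay within the range of lymphoid progenitor-like cells of those libraries, while the Stag2 wt levels lay above it. Mt1 was at -0.53 ± 0.18 in basophil/mast cell-like, -0.73 ± 0.38 in dendritic cell-like and -0.32 ± 0.34 in T/NK cell-like cells, each with overlap. The basophil/mast cell-like value was -0.09 with the prefix as a covariate. In that class the genotypes lay in different clusters: clusters 2 and 9 held 62.5% and 26.9% of the Stag2 KO cells and 1.31% and 4.68% of the Stag2 wt cells, while clusters 1 and 10 held 0.579% and 0.116% of the Stag2 KO cells and 47.5% and 23.9% of the Stag2 wt cells. T/NK cell-like cells were mostly in cluster 3 in Stag2 KO libraries, at 62.2%, and in clusters 3 and 7 in Stag2 wt libraries, at 33.0% and 36.9%. The largest dendritic cell-like cluster was cluster 16 in Stag2 KO libraries, at 44.7%, and cluster 11 in Stag2 wt libraries, at 49.2%. The T/NK cell-like value was 0.36 with the prefix as a covariate, and the dendritic cell-like one 0.23 with doublet calls kept. Mt2 held at most 12 UMIs per library in these classes and did not pass the filter on low counts there, nor did either gene in lymphoid progenitor-like cells.

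**Figure D4:**
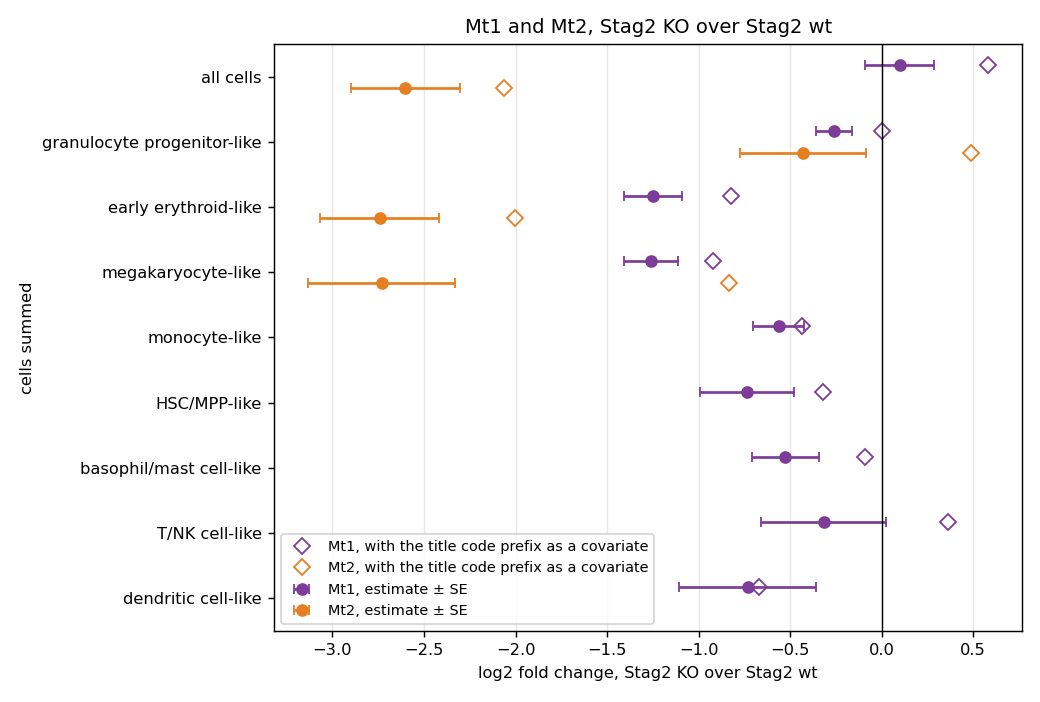
Log2 fold change of Mt1 (purple) and Mt2 (orange), Stag2 KO over Stag2 wt, for all cells and for each class in which the gene passed the low-count filter. Circles with bars are edgeR estimates ± SE from 3 libraries per genotype, and open diamonds are estimates with the title code prefix as a covariate. All class estimates without the covariate were below 0, from -0.26 to -2.74, and Mt1 over all cells was at 0.10.

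Taken cluster by cluster, 22 clusters held at least 20 cells in every library. Mt1 was lower in every Stag2 KO library than in any Stag2 wt library in 8 of them and higher in none, and Mt2 was lower so in 6 and higher in none. Over these clusters together, 6.57% of 196885 pairs of gene and cluster with at least 15 UMIs over the 6 libraries were lower without overlap, and 4.48% to 12.2% in a single cluster. These shares were computed after the data were seen, and nothing is read from them about Mt1 and Mt2, which were picked for this difference. The other 14 and 16 clusters overlapped, among them all 3 dendritic cell-like clusters.

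Genes that sense and move zinc were read in the same fits. Over all cells, 10.8% of 12641 tested genes passed 0.05, with a median log2 fold change of 0.01 over all tested genes. Of 7 tested genes in the list of MTF-1 and its other targets, 1 was higher and 1 was lower, with a median of -0.03. Mtf1, which encodes the zinc sensor itself, was at 24.6, 22.4 and 26.1 CPM in KO1 to KO3 and at 16.5, 20.8 and 19.2 CPM in WT1 to WT3 (log2 fold change 0.33 ± 0.09, SE, edgeR adjusted p = 0.0468). That call passed in only 4 of 13 alternatives (adjusted p up to 0.486). Selenow, a small selenoprotein, was at 203, 236 and 221 CPM in the Stag2 KO libraries and at 334, 321 and 333 CPM in the Stag2 wt libraries (-0.62 ± 0.08, edgeR adjusted p = 0.00153), a call that passed in 13 of 13. Slc30a1, the zinc exporter that MTF-1 induces, stood at 2.22, 2.06 and 2.19 CPM in Stag2 KO and at 2.51, 2.75 and 2.33 CPM in Stag2 wt libraries and did not pass (-0.26 ± 0.17, edgeR adjusted p = 0.392).

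None of 7 tested zinc exporters of the Slc30 family passed 0.05 over all cells, nor did any of 11 zinc importers of the Slc39 family, of 12 genes of copper handling or of 13 genes of the heat shock response. Their median log2 fold changes were 0.05, 0.08, 0.03 and 0.15. Of 18 tested genes of the oxidative stress response, 3 were higher and none lower, with a median of 0.06. They were Srxn1 (sulfiredoxin, 0.73 ± 0.17, SE, edgeR adjusted p = 0.0192), Txnrd1 (thioredoxin reductase, 0.39 ± 0.07, 0.00755) and Txn1 (thioredoxin, 0.26 ± 0.07, 0.049). Txn1 passed in 3 of 13 alternatives, and Srxn1 and Txnrd1 did not pass with the prefix as a covariate (edgeR adjusted p = 0.193 and 0.0662), although the log2 fold changes were 0.71 and 0.41 there.

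Genes that glucocorticoids induce moved both ways. Of 12 tested, 3 were higher and 4 lower over all cells, with a median log2 fold change of -0.35. Sgk1, a kinase that acts on ion transport, was at 3.19, 4.07 and 4.04 CPM in KO1 to KO3 and at 6.95, 10.1 and 8.49 CPM in WT1 to WT3 (-1.24 ± 0.16, SE, edgeR adjusted p = 0.00132). Ddit4, an inhibitor of mTORC1 signalling, was at -1.23 ± 0.17 (edgeR adjusted p = 0.00178) and Sesn1, a sestrin, at -0.54 ± 0.08 (0.00194). Klf9, a transcription factor, was higher at 0.74 ± 0.12 (edgeR adjusted p = 0.00359). All 4 calls passed in 13 of 13 alternatives. Of 16 interferon response genes only Usp18, which removes the ubiquitin-like ISG15, passed and was lower (-1.02 ± 0.17, edgeR adjusted p = 0.0045). Of 12 hypoxia response genes, the carbonic anhydrase gene Car9 was higher (0.51 ± 0.10, edgeR adjusted p = 0.00898) and the glycolysis gene Pgk1 lower (-1.50 ± 0.24, 0.00321). None of these 3 passed with the prefix as a covariate (edgeR adjusted p = 0.0769, 0.166 and 0.0626).

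In early erythroid-like cells, where both metallothioneins were lower, 1 of 69 tested list genes passed 0.05, beside 2.25% of 7436 tested genes. It was Cited2, a transcriptional coregulator in the glucocorticoid list, which was higher at 113, 135 and 140 CPM in KO1 to KO3 and at 61.8, 55.9 and 72.4 CPM in WT1 to WT3 (0.96 ± 0.14, SE, edgeR adjusted p = 0.000148). With the prefix as a covariate it was at 0.92 and did not pass (edgeR adjusted p = 0.0564). Mtf1 stood at 13.6, 15.3 and 17.3 CPM in Stag2 KO and at 11.4, 13.04 and 11.1 CPM in Stag2 wt libraries there (0.30 ± 0.29, edgeR adjusted p = 0.764), and Slc30a1, at 0 to 2.88 CPM in Stag2 KO and 1.14 to 3.32 CPM in Stag2 wt libraries, was below the filter. In megakaryocyte-like cells, beside 1.5% of 8328 tested genes, 3 of 76 tested list genes passed and were lower. They were Pgk1 (-2.61 ± 0.30, SE, edgeR adjusted p = 1.73e-05), Selenow (-0.49 ± 0.10, 0.00499) and Rtp4, an interferon-induced gene (-1.11 ± 0.28, 0.0471). Rtp4 passed in 6 of 14 alternatives (edgeR adjusted p up to 0.582) and Selenow in 13 of 15, with an edgeR adjusted p of 0.138 and a log2 fold change of -0.47 with the prefix as a covariate. Mtf1 did not pass in these cells (-0.65 ± 0.31, edgeR adjusted p = 0.499), and Slc30a1 was below the filter.

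The genes around the pair were compared in the same fits. Of 34 other genes annotated within 500 kb of the Mt1 start, 16 were in the tables and 13 were tested over all cells. None was higher and 3 were lower in Stag2 KO libraries, with a median log2 fold change of 0.01. Of all 12641 tested genes, 10.8% passed 0.05 in either direction. Upstream, the nearest tested genes were Bbs2, a gene of cilia, at 0.21 ± 0.25 (SE, edgeR adjusted p = 0.672), Ogfod1 at 0.25 ± 0.16 (0.376) and Nudt21, an mRNA cleavage factor, at -0.13 ± 0.07 (0.267). Downstream, Nup93 of the nuclear pore starts 35482 bases away and stood at 14.9, 17.1 and 15.9 CPM in KO1 to KO3 and at 14.99, 15.1 and 16.3 CPM in WT1 to WT3 (0.01 ± 0.09, edgeR adjusted p = 0.983). Slc12a3, a salt cotransporter best known from the kidney, starts 150119 bases away and was scarce, at 0.263, 0.206 and 0.174 CPM in Stag2 KO against 1.35, 1.26 and 0.809 CPM in Stag2 wt libraries (-2.36 ± 0.36, edgeR adjusted p = 0.00289), and passed in 12 of 13 alternatives. Herpud1, induced by endoplasmic reticulum stress, did not pass (-0.20 ± 0.09, edgeR adjusted p = 0.227). Nlrc5, an activator of MHC class I genes, was lower (-0.61 ± 0.17, edgeR adjusted p = 0.0462), but in only 5 of 13 alternatives. The third lower gene was that of a long noncoding RNA 256021 bases away (-0.975 ± 0.24, edgeR adjusted p = 0.0293), in 8 of 13 alternatives. Among fitted classes both had their highest means in T/NK cell-like cells, where neither passed (-0.54 and -0.74, edgeR adjusted p = 0.244 and 0.185). That class was 976 of 10339 kept Stag2 KO cells and 2186 of 13077 kept Stag2 wt cells, so the sums over all cells differ in makeup.

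Slc12a3 held at most 1.14 CPM in early erythroid-like and 0.673 CPM in megakaryocyte-like cells of any library and was not tested there. In these 2 classes 9 neighbours each were tested and none passed 0.05, where 2.25% of 7436 and 1.5% of 8328 tested genes did. At shares this small nothing is read from that about the neighbours. Their log2 fold changes were from -0.185 to 0.0523 and from -0.148 to 0.316. In the other classes Nudt21 (-0.36 ± 0.09, SE, edgeR adjusted p = 0.0107) and Arl2bp (-0.41 ± 0.11, 0.0181) were lower in basophil/mast cell-like cells, beside 12.0% of 9781 tested genes that passed 0.05. Nudt21 passed in 12 and Arl2bp in 9 of 15 alternatives, and neither did with the prefix as a covariate (edgeR adjusted p = 0.17 and 0.32, log2 fold change -0.35 and -0.36). Cpne2 was lower in monocyte-like cells, where 6.0% of 9361 tested genes passed 0.05, at 15.3, 15.6 and 13.5 CPM in KO1 to KO3 and at 24.9, 26.0 and 25.2 CPM in WT1 to WT3 (-0.81 ± 0.15, SE, edgeR adjusted p = 0.00462). It passed in 13 of 15 alternatives (edgeR adjusted p up to 0.58, and 0.101 at -0.79 with the prefix as a covariate).

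**Figure D5:**
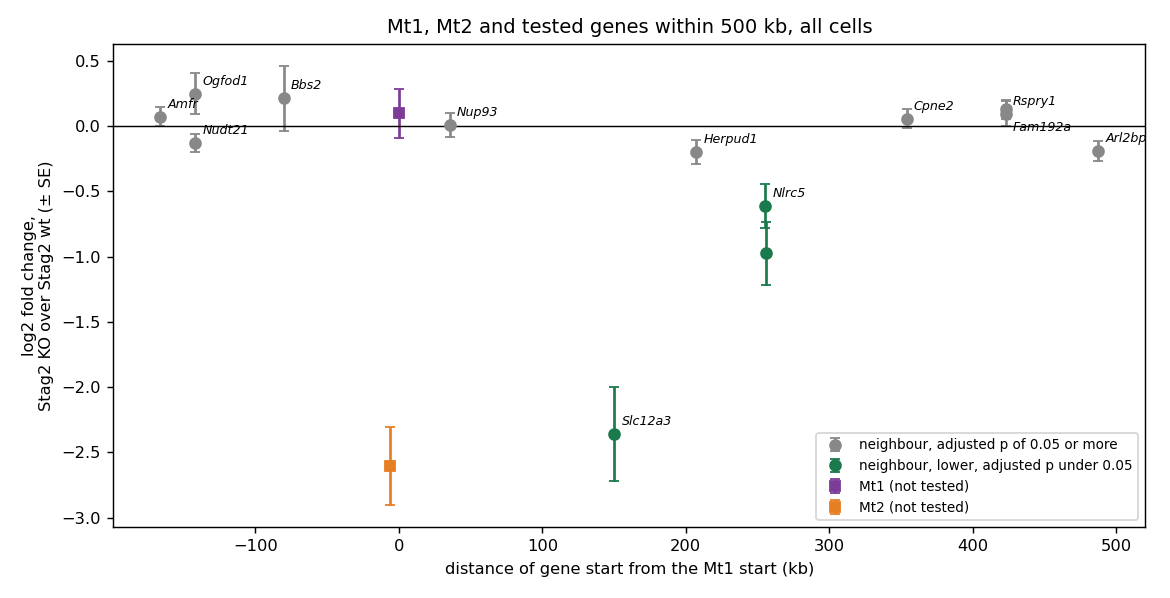
Log2 fold change over all cells, Stag2 KO over Stag2 wt, of Mt1, Mt2 and the 13 tested genes within 500 kb, against the distance of each gene's start from the Mt1 start in kb. Bars are SE, green marks the 3 neighbours with an edgeR adjusted p under 0.05, and squares are Mt1 and Mt2, which were not tested. On either side of the pair, Bbs2 was at 0.21 ± 0.25 and Nup93 at 0.01 ± 0.09, and neither passed.

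Other genes were ranked by how closely their levels matched. Late neutrophil-like and eosinophil-like cells were left out of the class means used here. Their own Stag2 wt means were 488 and 332 CPM of Mt1 and 0 and 3.81 CPM of Mt2. Across the means of the 11 classes used in Stag2 wt libraries, and among 4880 genes, by Pearson correlation Mt2 was most like erythroid genes. They were Smim1 (Pearson r = 0.996), Ermap (0.99), Urod (0.98), Minpp1 (0.97) and Ces2g (0.96), of which Smim1 and Ermap encode red cell surface proteins and Urod an enzyme of haem synthesis. Mt1 was most like Atp5g1 (0.94), Gatm (0.93), Ebna1bp2 (0.93), Phb (0.92) and Pabpc4 (0.92), which include genes of mitochondria and of ribosome assembly. Between Mt1 and Mt2 themselves r was 0.71, which placed Mt1 at rank 315 for Mt2. By rank correlation the 5 nearest were Hnrnpll, Comtd1, Zpr1, Asap1 and Cetn3 for Mt1 and Acot13, Gpn3, Psmd5, BC003965 and Aimp1 for Mt2. None of the latter were among the erythroid genes above. Outside late erythroid-like, early erythroid-like and megakaryocyte-like cells, Stag2 wt means of Mt2 were at most 3.74 CPM in these classes. That is below the 10 CPM added before taking logs, so the Pearson r of Mt2 rests on few classes. The 11 points share libraries and their depth.

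Across libraries within classes, with each class centred on its own mean (54 points from 6 libraries and 9 classes), Mt1 and Mt2 were each other's nearest gene (Pearson r = 0.75). Next for Mt1 came Aplp2 (0.74), Ddah2 (0.72) and Ces2g (0.70), and for Mt2 Ces2g (0.74), Asph (0.74), Ermap (0.69) and Aqp1 (0.67), the water channel of red cells. Ermap and Aqp1 are also among the early erythroid markers. A predicted gene completed the 5 for Mt1. By rank correlation the pair stood further apart (0.62, rank 26 and 21), behind Aplp2, Ddah2, Anapc13, Rpl35 and Polr2l for Mt1 and Zbed5, Cd24a, Ermap, Hnrnpa3 and a predicted gene for Mt2. The genotype difference itself enters these correlations, and the libraries are shared by all points.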

How the data were processed

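Raw UMI counts per cell and gene were used as the authors deposited them, in 6 tables, 1 per library. Libraries were made with the 10x 3' chemistry, per the labels' protocols. Neither the labels nor the file headers state the aligner, the counting tool or the genome build. Cluster numbers in the tables carry no names and were not used. The members and the gene and marker lists were chosen with earlier results of these data known.

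Cells were kept from 500 detected genes upward and up to 20% mitochondrial UMIs. Cells scored closest to simulated doublets were removed, 0.8% per 1000 cells, which took 47 to 367 cells per library. All libraries were clustered together on 2000 variable genes without Mt1 and Mt2, with 30 components, 15 neighbours and Leiden resolution 1.0 (leidenalg 0.10.2, scikit-learn 1.9.0). Clusters were named where at least 3 fixed markers were raised, otherwise left unnamed. Counts were summed per library and class. They were fitted with edgeR 4.0.16 (TMM, its filter on low counts, quasi-likelihood test, Benjamini-Hochberg adjustment over all tested genes, threshold 0.05). Mt1 and Mt2 were fitted with all other genes, and their p was not used. Levels are CPM, UMIs of a gene per 1000000 UMIs of the summed cells. The SE is the log2 fold change divided by the root of its F statistic. The fit was tested on simulated counts. Intervals and floors of 3 counts cover counting error only.

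Genes named were Mt1, Mt2, Mt3 and Stag2, up to 4 called members per list with the smallest p, Mtf1 and Slc30a1, the 3 nearest tested neighbours on each side, any called neighbour, and the 5 genes most like each member. Predicted genes were counted, not named, except Gm45774, which was named for its overlap with Mt2. Alternatives were DESeq2 1.42.0, RLE factors, no low-count filter, the title code prefix as a covariate, the XA libraries alone, each library left out, doublet calls kept, cells with at least 2000 UMIs, equal class shares, other clusterings and rank correlation.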

Additional observations from a re-analysis of the deposited data

How the results depend on the processing

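Of 204 alternative values of the Mt1 and Mt2 fold changes, 193 kept their sign and 177 stayed within 1 unit of replicate spread. With the title code prefix as a covariate, the log2 fold change of Mt1 was 0.58 over all cells, 0.36 in T/NK cell-like, -0.091 in basophil/mast cell-like, -0.82 in early erythroid-like, 0.0001 in granulocyte progenitor-like and -0.92 in megakaryocyte-like cells. That of Mt2 was 0.49 in granulocyte progenitor-like and -0.84 in megakaryocyte-like cells, and the genes called over all cells numbered 719 in place of 1368. In the XA libraries alone, which like the covariate fit set the Stag2 KO libraries against WT1 alone, Mt1 was at 0.59 over all cells and at -0.30 (HSC/MPP-like), 0.37 (T/NK cell-like), -0.079 (basophil/mast cell-like), -0.82 (early erythroid-like), 0.012 (granulocyte progenitor-like) and -0.91 (megakaryocyte-like), and Mt2 at 0.50 (granulocyte progenitor-like) and -0.84 (megakaryocyte-like). With equal class shares Mt1 was at -0.44 and Mt2 at -1.70 over all cells, and Mt2 was at -0.93 without erythroid-like and megakaryocyte-like cells, a setting chosen after the data were seen. With doublet calls kept, Mt1 was at 0.23 in dendritic cell-like, -0.86 in megakaryocyte-like and -0.31 in monocyte-like cells, and it was at -0.88 in megakaryocyte-like cells clustered with Mt1 and Mt2. With 1 library left out, Mt1 in HSC/MPP-like cells ranged from -0.96 to -0.30 (without WT3), Mt2 in granulocyte progenitor-like cells from -0.60 to 0.16 (without WT3), Mt2 in megakaryocyte-like cells from -4.06 (without KO1) to -2.33, and the genes called over all cells from 748 (without KO1) to 1441. The share of granulocyte progenitor-like cells with an Mt2 UMI, Stag2 KO minus Stag2 wt, was 0.483 percentage points thinned and -1.19 unthinned. The causes were not tested.

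Genes called per class ranged over the alternatives from 58 to 309 in HSC/MPP-like cells (154 as reported), 94 to 384 in T/NK cell-like (218), 378 to 1505 in basophil/mast cell-like (1169), 276 to 866 in dendritic cell-like (654), 71 to 263 in early erythroid-like (167), 35 to 388 in granulocyte progenitor-like (201), 28 to 94 in lymphoid progenitor-like (60), 31 to 217 in megakaryocyte-like (125) and 121 to 942 in monocyte-like cells (562). No paired analysis was possible because the replicate numbers follow accession order and pair no samples. Depth limits Mt2 most, since it rests on 50 to 215 UMIs per Stag2 KO library and on 263 to 1012 per Stag2 wt library. The 3 wt libraries hold 1 with the XA prefix, so the prefix and the library cannot be told apart in the wt group.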
